A study of Mus musculus with 4 samples.

Results

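The expression of 10 myeloid C-type lectin receptor genes was examined in the skin of GSDMD KO and WT mice after repeated subcutaneous bleomycin (BLM), an antibiotic used to induce fibrosis of mouse skin. The genes were taken by name from the 24441 genes of the deposited table: Clec4d, Clec4e, Clec4n, Clec7a, Clec4a1, Clec4a2, Clec4a3, Clec5a, Clec10a and Clec12a, and all 10 were found. The family was chosen by the log2 fold changes of these same libraries, in which Clec4d and Clec4e were among the lowest of all genes in GSDMD KO mice. The differences between the genotypes in these genes are therefore a description. No p is given for a single receptor gene, and where the genes are counted by the limits used for all genes, the counts are not evidence of a difference. RNA-seq was performed on 4 skin libraries, 2 from wild type C57BL/6 mice and 2 from GSDMD-/- mice of the same strain. By the labels all mice were female and 8 weeks old, and they were given BLM subcutaneously on alternate days up to day 28. No saline-treated library was analysed here, so the level of these genes in untreated skin is not part of the comparison. The KO line was made with Cas9 in fertilized eggs, so that the edit is not limited to a cell type, and the deleted part of the gene is not given in the sources used here. The labels number the libraries within each genotype but do not say that each came from a separate mouse, and the p-values given for other genes measure the spread between these libraries only, which may be technical.

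C-type lectin receptors are membrane proteins of macrophages, monocytes, neutrophils and dendritic cells that recognise sugars, glycolipids and products of dying cells. The activating members signal through an immunoreceptor tyrosine-based activation motif (ITAM), which is carried by the receptor itself or by the adaptors FcRγ and DAP12, to the kinase SYK and the CARD9, BCL10 and MALT1 complex, and this leads to NF-κB activity and cytokine production. Inhibitory members carry a motif (ITIM) that recruits phosphatases such as SHP-1. In skin the family is best known for the recognition of fungi and mycobacteria and for the uptake of sugar-bearing antigens.

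The values were FPKM, fragment numbers scaled to transcript length and to library depth, and they summed to 448544 to 462251 per library. From the steps between low values, 1 fragment per kilobase came to about 0.0571 to 0.0781 FPKM, the deepest library being WT replicate 1. Gsdmd was at 14.0 and 18.2 FPKM in WT libraries and at 3.53 and 2.26 FPKM in KO libraries, with no overlap of the genotypes. The limma fit described further on gave it a log2 fold change of -2.14 with a standard error of 0.29 and a Benjamini-Hochberg adjusted p of 0.248. KO replicate 2 stood apart in markers of many cell types. The median fibroblast marker was at 14.4% of its WT mean in this library and at 172.2% in KO replicate 1, and the median endothelial marker was at 8.08% and 92.8%. The median macrophage marker was low in both, at 45.4% of its WT mean in KO replicate 1 and at 4.55% in KO replicate 2. Hair follicle markers were high in KO replicate 1, where the 7 genes summed to 307.0 FPKM against 1.54 to 17.8 FPKM in the other 3 libraries. Of these 7 genes 4 were above both WT libraries in both KO libraries, among them Lhx2, at 7.99 and 10.02 FPKM in KO libraries and at most 1.48 FPKM in WT. The median keratinocyte marker was at 231.2% and 217.6% of its WT mean in KO replicates 1 and 2. Both KO libraries were above both WT libraries in 3 of the 5, whereas Krt1 and Krt10 were below both WT libraries in KO replicate 2. The median skeletal muscle marker was at 57.8% and 63.9%, with both KO libraries below in 4 of 5. The median adipocyte marker was at 68.7% and 6.02%, with both below in 1 of 5, and the adipocyte sum of 2221 FPKM in KO replicate 1 lay between the WT sums of 1753 and 4798 FPKM. By the adjusted limit 0 of the keratinocyte, hair follicle, muscle and adipocyte markers were called in limma. At an unadjusted p under 0.05 past the fold limit 3 keratinocyte and 3 hair follicle markers were higher and 1 muscle marker was lower. Of all genes tested, 6.16% were higher and 4.14% lower by these limits. Both KO libraries were above both WT libraries in 35.3% of them and below in 20.5%. Against the label female, 4 Y-linked genes (Ddx3y, Eif2s3y, Uty and Kdm5d) summed to 1.78 FPKM in KO replicate 2 and to 0 in the other 3 libraries. The part of these differences between libraries in the values of the receptor genes was not tested. In bulk skin RNA, moreover, fewer cells of a type and less RNA per cell cannot be told apart.

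Of the 10 receptor genes 9 lie on chromosome 6, and most of them belong to the Clec4 cluster or to the NK gene complex. The sequences before the annotated transcription starts of Clec4e and Clec4d, the genes of the 10 at or below 10% of the WT mean in both KO libraries, and of Clec12a, the gene with the lowest share in KO replicate 2, are shown as RefSeq gives them for GRCm38.p6. Each is the 250 bases before the start, read 5′ to 3′ on the strand of the gene. Capitals mark GAGGAA, the core recognised by the myeloid factor PU.1, and TTGCNNAA, a form of the C/EBP site, on either strand, so GAGGAA is also seen as TTCCTC.
Clec4e (chr6:123289872-123290121, minus strand): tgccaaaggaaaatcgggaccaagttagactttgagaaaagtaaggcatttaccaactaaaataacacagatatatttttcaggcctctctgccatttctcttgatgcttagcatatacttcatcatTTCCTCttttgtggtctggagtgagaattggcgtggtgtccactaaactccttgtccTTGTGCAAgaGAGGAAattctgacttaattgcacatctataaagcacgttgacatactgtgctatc
Clec4d (chr6:123261857-123262106, plus strand): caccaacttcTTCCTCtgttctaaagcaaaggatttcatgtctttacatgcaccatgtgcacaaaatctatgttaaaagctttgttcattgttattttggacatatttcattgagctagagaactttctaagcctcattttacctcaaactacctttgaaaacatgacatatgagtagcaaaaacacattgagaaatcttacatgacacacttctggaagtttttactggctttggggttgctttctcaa
Clec12a (chr6:129349994-129350243, plus strand): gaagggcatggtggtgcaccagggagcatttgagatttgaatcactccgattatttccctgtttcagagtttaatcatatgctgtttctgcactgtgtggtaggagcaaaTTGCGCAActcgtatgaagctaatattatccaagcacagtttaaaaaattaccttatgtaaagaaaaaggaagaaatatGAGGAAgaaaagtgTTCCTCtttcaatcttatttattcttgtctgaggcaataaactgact
These 3 neighbourhoods differ in what they hold near the start. With the first transcribed base as 0, Clec4e has a C/EBP form at -66 followed by a PU.1 core at -56 and TATAAA at -29, and another PU.1 core at -123. Clec12a has PU.1 cores at -61 and -47 and the C/EBP form TTGCGCAA at -140. In Clec4d the only PU.1 core of the printed stretch is at -240, and 2 more lie after the start, at 7 and 39. RefSeq windows of 250 bases before to 50 bases after the start were at hand for 8 of the 10 genes, all but Clec4n and Clec10a. GAGGAA was in a window of 7 of these 8 genes and in 28.3% of all 32851 windows. Here and below, a gene was counted with a match in any of its windows, whereas the percentage is over single windows. TTGCNNAA was found for Clec4e and Clec12a and in 10.8% of all windows. The AP-1 letters TGANTCA were in Clec4a2 and Clec12a (7.81% of all windows), and an ETS-IRF composite, GGAA and GAAA 2 bases apart, was in Clec7a and Clec4a1 (2.72%) without overlap with a PU.1 match. An IRF form, GAAA and GAAA 2 bases apart, was in Clec4d (3.44%), where it overlaps the PU.1 core at 7. STAT letters, TTCNNNGAA, were in Clec4a2 (8.30%), and TATAAA was in Clec4e, Clec7a, Clec5a and Clec4a2 (13.6%). An NF-κB form, GGG and TTTCC 2 bases apart (1.63%), and the E-box CACGTG (7.15%) were in none of the 8. All were searched on both strands. Such a match is a description of letters and not a bound site.

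In GSDMD KO mice all 10 receptor genes had a lower mean FPKM than in WT mice, and the size differed widely between them. The ligand-sensing pair Clec4e and Clec4d kept 2.18% to 8.34% of the WT mean in the KO libraries. A middle group of 7 genes kept 17.8% to 58.3% of the WT mean in KO replicate 1 and 2.13% to 13.5% in KO replicate 2. Clec10a was at 103.0% of the WT mean in KO replicate 1 and at 17.0% in KO replicate 2. The summed FPKM of the 10 genes was 144.4 and 162.2 in WT libraries, 59.3 in KO replicate 1 and 13.2 in KO replicate 2. KO replicate 2 was the lowest of the 4 libraries in 10 of 10 receptor genes, and it was the lowest in 33.3% of the 13027 genes tested, which reached 1 FPKM in 2 or more libraries.

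**Figure D1:**
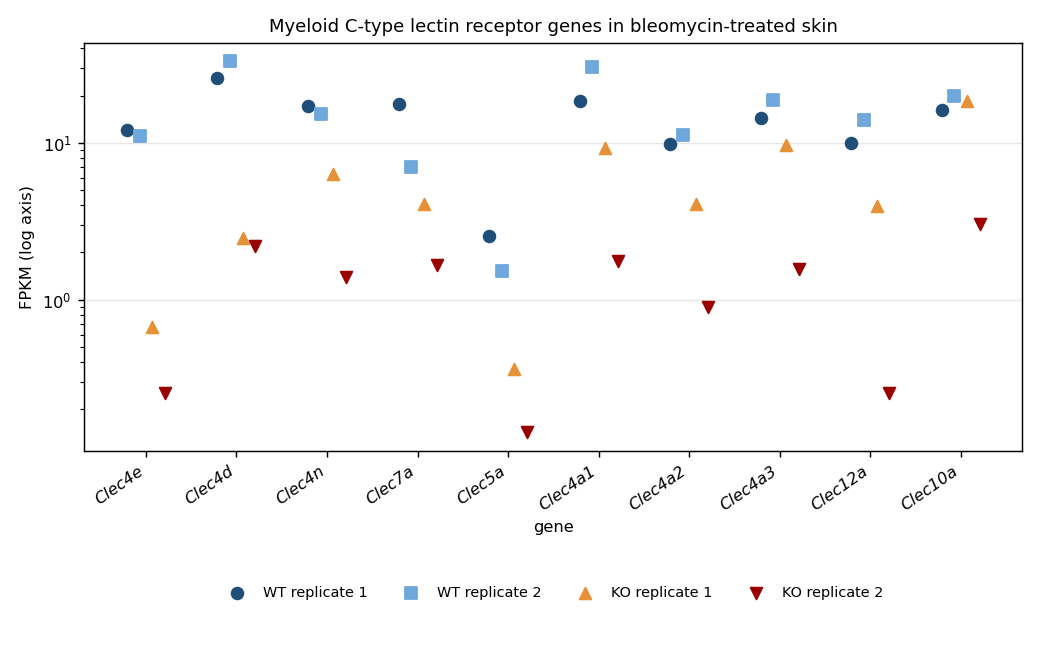
FPKM (log axis) of the 10 receptor genes in each of the 4 libraries, with circles and squares for WT and triangles for KO. Both KO libraries sit below both WT libraries in 9 genes, and the exception is Clec10a, where KO replicate 1 (18.5 FPKM) lies between the WT libraries.

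Fold changes were taken from log2(FPKM + 1), so that changes of low genes come out too small, and were fitted with limma over the 13027 genes. All 10 genes entered this fit, Clec4e and Clec5a only through their WT values, so that their presence required a difference. The median log2 fold change of the 10 genes was -1.97, against 0.11 for all genes tested. An adjusted p under 0.05 and a log2 fold change beyond 1 in either direction were reached by 0 of the 10 genes and by 0% of all genes tested in limma with Benjamini-Hochberg adjustment. Fits that leave out a KO library assume that the lone KO library varies like the WT group, so no receptor gene is named by their calls. With an unadjusted p under 0.05 and a log2 fold change below -1, 8 of the 10 genes were counted, all but Clec4a3 and Clec10a, and 4.14% of all genes tested. In the other direction it was 0 of 10 and 6.16%. The lower number was 5 of 10 without WT replicate 1, beside 428 of all genes, and 5 of 10 without WT replicate 2, beside 242 of all genes, against 539 with all libraries. Neither KO library reached the lower WT library in 9 of the 10 genes and in 20.5% of all genes tested, whereas both exceeded the higher WT library in 0 of 10 and 35.3%. The log2 fold change was below 0 in 10 of 10 genes and 41.4% of all genes, and below -1 in 10 of 10 and 6.59%. KO replicate 2 was at or below 10% of the WT mean in 8 of 10 and 3.29%, and KO replicate 1 in 2 of 10 and 0.238%. These counts describe genes that were picked with this contrast in view, Clec4e and Clec5a among them, and nothing is read from them. Leaving out KO replicate 2 moved the median of the 10 genes to -1.25, and leaving out KO replicate 1 moved it to -2.81.

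Clec4e encodes Mincle, which binds the mycobacterial glycolipid cord factor and a nuclear protein set free by dead cells, and signals through FcRγ. The mm9 position of its 6 exons is chromosome 6, 123231807 to 123239889, minus strand. Clec4e was at 12.1 and 11.0 FPKM in the WT libraries and at 0.674 and 0.253 FPKM in the KO libraries. The WT pair was close together, and the groups were separated by a wide gap. The WT mean was 25.0 times the KO mean, and the log2 fold change was -3.12 (standard error 0.27). About 23.3 and 8.16 fragments stood behind the KO values, so the lower of them is a small count. With a pseudocount of 0.1 the log2 fold change was -4.48.

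Clec4d encodes MCL, also called Dectin-3, the neighbour and partner of Mincle. It lies next to Clec4e, from 123212125 to 123225286. Its level was 25.8 and 33.1 FPKM in WT libraries and 2.46 and 2.19 FPKM in KO libraries. The KO libraries were nearly equal here (29.5 ± 5.17 FPKM in WT and 2.32 ± 0.191 FPKM in KO, SD, n = 2 each), unlike in the other 9 genes, where KO replicate 1 was 2.45 to 15.6 times KO replicate 2. The log2 fold change was -3.19 (standard error 0.25). It ranked 16 and Clec4e ranked 23 from the lowest of the 13027 genes. Among all genes tested, 0.13% were at or below 10% of the WT mean in both KO libraries, and Clec4d and Clec4e were the 2 receptor genes among them. In every library Clec4d was higher than Clec4e per length, by 2.13 and 3.0 times in WT and by 3.65 and 8.65 times in KO libraries.

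Clec4n encodes Dectin-2, a receptor for fungal mannans that also uses FcRγ. It was at 17.2 and 15.4 FPKM in WT libraries and at 6.30 and 1.39 FPKM in KO libraries, and its log2 fold change came to -2.05 (standard error 0.55). Without KO replicate 2 it was -1.24. Clec7a encodes Dectin-1, the receptor for fungal beta-glucan, which carries its own signalling motif. Its WT libraries were far apart, at 17.7 and 6.99 FPKM, and its KO libraries were at 4.07 and 1.67 FPKM. The groups did not overlap, but the lower WT library was nearer to KO replicate 1 than to the other WT library. The log2 fold change of Clec7a was -1.73 (standard error 0.53), and it was -1.12 without WT replicate 1. Clec5a encodes MDL-1, which pairs with DAP12 on myeloid cells. It was the lowest of the 10 genes in every library, with 2.55 and 1.51 FPKM in WT against 0.361 and 0.143 FPKM in KO libraries, and about 18.9 and 7.02 fragments stood behind the KO values. The log2 fold change of Clec5a was -1.26 (standard error 0.29) with a pseudocount of 1 and -2.63 with 0.1.

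The DCIR group and Clec12a include the inhibitory receptors. Clec4a2 encodes DCIR, which carries an ITIM. It was at 9.88 and 11.1 FPKM in WT libraries and at 4.07 and 0.900 FPKM in KO libraries. Its WT values were close together and its KO values were 4.52 times apart. The related Clec4a1 was at 18.6 and 30.6 FPKM in WT against 9.22 and 1.76 FPKM in KO libraries. Clec4a3 was at 14.4 and 18.7 FPKM in WT against 9.66 and 1.57 FPKM in KO libraries. Their log2 fold changes were -2.23 (standard error 0.67) for Clec4a1, -1.89 (0.50) for Clec4a2 and -1.74 (0.69) for Clec4a3. Without KO replicate 2 they were -1.28, -1.18 and -0.71. Clec12a encodes MICL, another ITIM receptor of granulocytes and monocytes, which recognises uric acid crystals, and it lies on chromosome 6 from 129300262 to 129315321. Clec12a was at 9.96 and 13.9 FPKM in WT libraries, 3.98 FPKM in KO replicate 1 and 0.255 FPKM in KO replicate 2. The KO libraries differed by 15.6 times, the widest ratio among the 10 genes, with about 7.25 fragments behind the lower value. The fit gave -2.35 on the log2 scale (standard error 0.68), and -1.36 without KO replicate 2.

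Clec10a encodes MGL1, a receptor for galactose and N-acetylgalactosamine on macrophages and dendritic cells, and it is the only one of the 10 genes outside chromosome 6 (chromosome 11, 69980125 to 69984338, mm9). It was at 16.2 and 19.8 FPKM in WT libraries, with 18.5 FPKM left in KO replicate 1 but 3.05 FPKM in KO replicate 2. The groups thus overlapped, and the low KO mean came from a single library. The log2 fold change was -1.09 (standard error 0.75). Leaving out KO replicate 2 gave 0.05, and leaving out KO replicate 1 gave -2.22. In WT libraries Clec10a made up 11.2% and 12.2% of the summed FPKM of the 10 genes. In KO replicates 1 and 2 it made up 31.2% and 23.2%, the largest share in both. Clec4d, in turn, went from 17.9% and 20.4% in WT libraries to 4.14% in KO replicate 1 and 16.6% in KO replicate 2.

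**Figure D2:**
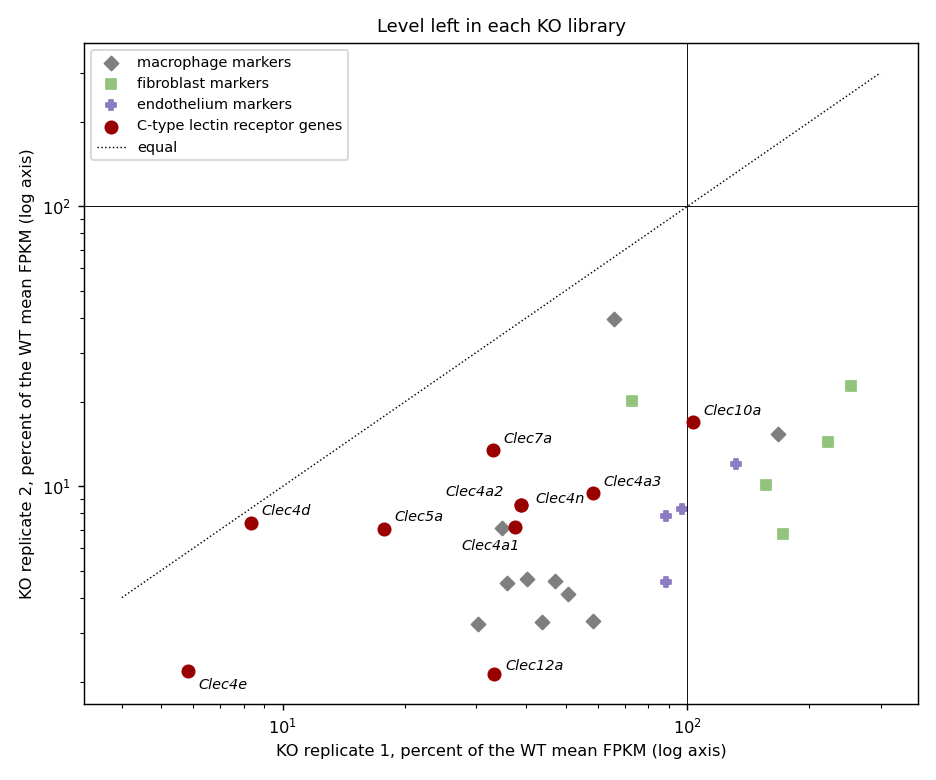
Level in KO replicate 1 (x axis) and KO replicate 2 (y axis) as percent of the WT mean FPKM, both on log axes, for the 10 receptor genes and for macrophage, fibroblast and endothelial markers; the dotted line marks equal levels. Clec4d lies nearest to the dotted line (8.34% and 7.42%) and Clec10a is the farthest right of the receptor genes (103.0% and 17.0%).

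Since macrophage markers were low in the same libraries, each receptor gene was also set beside them. A list of 10 macrophage markers summed to 2066 and 2095 FPKM in WT libraries, 860.9 FPKM in KO replicate 1 and 91.0 FPKM in KO replicate 2, with none of them at 0. Of the 10 markers 9 had both KO libraries below both WT libraries, beside 20.5% of all genes tested. Csf1r was among the 9, at 34.6 and 46.7 FPKM in WT against 16.3 and 1.90 FPKM in KO libraries. The exception was Cd163, at 167.6% of its WT mean in KO replicate 1. The mean log2 FPKM of the markers was subtracted from the log2 FPKM of each receptor gene within a library. Clec4e was then at -2.0 and -2.47 in WT libraries and at -5.36 and -3.71 in KO libraries, below WT in both. Clec12a was at -2.29 and -2.14 in WT and at -2.80 and -3.70 in KO libraries, also below in both. Clec4d was below both WT libraries in KO replicate 1, at -3.49 against -0.91 and -0.89, and it was at -0.59 in KO replicate 2. Clec10a was above WT in both KO libraries, at -0.58 and -0.11 against -1.59 and -1.63, and so was Clec4a3, at -1.52 and -1.07 against -1.75 and -1.71. In the other 5 genes the KO and WT libraries overlapped on this scale. About 8.16 and 7.25 fragments stood behind the KO replicate 2 values of Clec4e and Clec12a. The share of all genes that separate in this way was not computed, so these separations are a description only. This scale compares RNA levels and gives no cell numbers, and the part of macrophage content in each value was not tested.

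**Figure D3:**
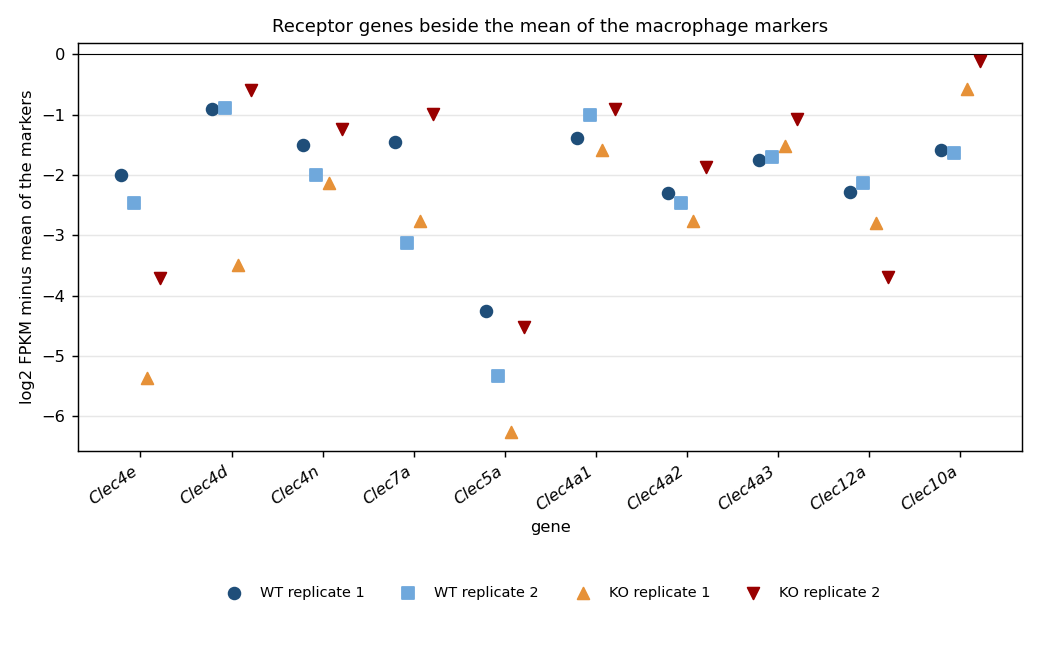
Receptor gene level beside the macrophage markers, as log2 FPKM minus the mean log2 FPKM of 10 markers in the same library (linear axis), with 1 point for each of the 4 libraries. Clec4e and Clec12a lie lower in both KO libraries than in both WT libraries, whereas Clec10a and Clec4a3 lie higher. The share of all genes that separate in this way was not computed.

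Markers of other immune cell types were set beside the receptor genes as well, and they did not all go the same way. Of 5 tested monocyte markers 5 had both KO libraries below both WT libraries, and the 6 listed markers summed to 207.2 and 184.4 FPKM in WT against 90.3 and 9.38 FPKM in KO libraries, with Treml4 at 0 in KO replicate 1. Of 6 tested neutrophil markers 5 did so, and the 8 listed markers summed to 766.6 and 633.1 FPKM in WT against 310.4 and 151.4 FPKM in KO libraries. Ly6g, a defining neutrophil marker, was at 0 in both KO libraries and at most at 0.24 FPKM in WT, too low to be tested. Of 4 tested dendritic cell markers 4 had both KO libraries below, and the 6 listed markers summed to 19.9 and 15.3 FPKM in WT against 8.24 and 3.40 FPKM in KO libraries. Of the Langerhans cell markers, Cd207 was at 2.22 and 1.63 FPKM in WT, 4.16 FPKM in KO replicate 1 and 1.46 FPKM in KO replicate 2, the highest and the lowest of the 4 libraries. Epcam, which other epithelial cells express too, had both KO libraries above both WT libraries, at 24.8 and 11.2 FPKM in WT against 68.6 and 101.5 FPKM in KO libraries. The T cell markers summed to 14.1 and 11.9 FPKM in WT against 12.6 and 4.03 FPKM in KO libraries, and the median of the 5 tested was at 114.5% of its WT mean in KO replicate 1 and at 22.8% in KO replicate 2. B cell markers reached at most 3.05 FPKM in sum, and NK cell markers at most 1.65 FPKM. Of 5 mast cell markers 5 had a lower mean log2 value in GSDMD KO mice but 0 had both KO libraries below, and their sum was 99.7 FPKM in KO replicate 1 and 11.2 FPKM in KO replicate 2, against 67.7 and 70.7 FPKM in WT. At the adjusted threshold limma called 0 of the tested macrophage, monocyte, neutrophil and dendritic cell markers, and 6, 4, 5 and 2 of them had an unadjusted p under 0.05 with a log2 fold change below -1.

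Along the Clec4 cluster of chromosome 6 the genes follow each other as Clec4a1, Clec4a3, Clec4a4, Clec4b1, Clec4a2, Clec4b2, Clec4n, Clec4d and Clec4e, and 6 of these 9 are among the 10 receptor genes. Of the others, Clec4b1 was at 2.90 and 4.57 FPKM in WT, at 1.26 FPKM in KO replicate 1 and listed at 0 in KO replicate 2. Its adjusted p was 0.248 by limma. Clec4a4 reached at most 0.559 FPKM and Clec4b2 at most 0.0789 FPKM, both too low to be tested. At the end of this order the neighbours Clec4d and Clec4e kept 8.34% and 5.82% of the WT mean in KO replicate 1. The gene before them, Clec4n, kept 38.7% there. In KO replicate 2 Clec4n kept 8.56%, near the 7.42% of Clec4d, and Clec4e kept 2.18%.

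**Figure D4:**
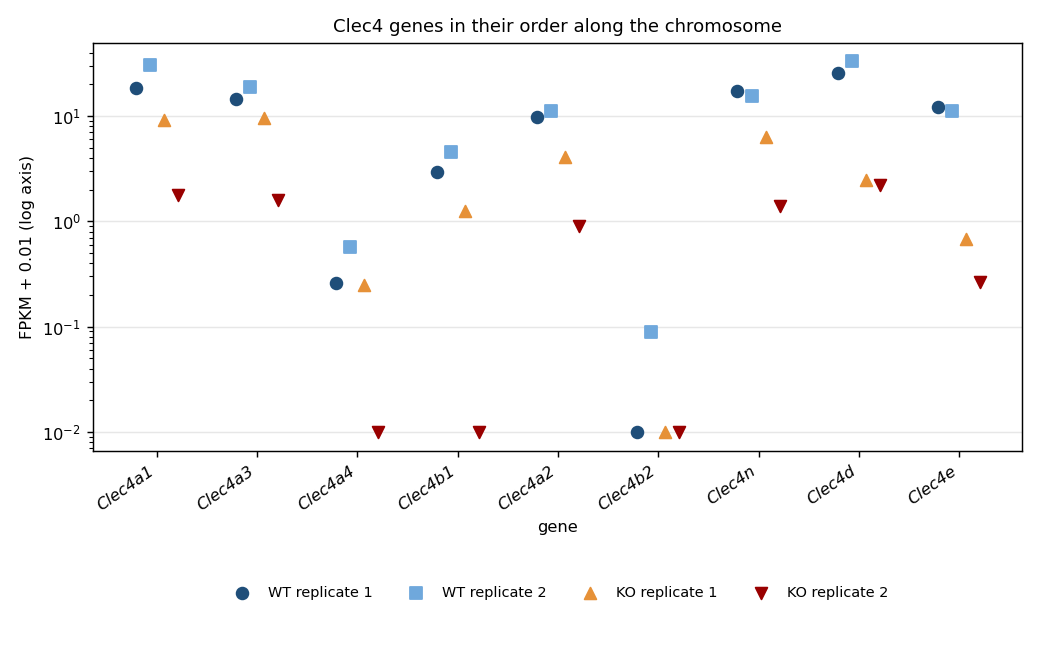
FPKM + 0.01 (log axis) of the 9 Clec4 genes in their order along chromosome 6, with 1 point for each library; points at the bottom are genes listed at 0. Clec4d and Clec4e, at the right end, have both KO libraries far below both WT libraries, and Clec4a4 and Clec4b2 were low in all 4 libraries.

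Members of the family resemble each other in sequence, and reads could have been split between them by the counting. The coding sequences of Clec4a2 and Clec4a3 matched at 75.9% of the bases of the shorter one, and those of Clec4a1 and Clec4a3 at 72.3%. Clec4e and Clec4d matched at 58.8%. Of all windows of 31 bases in the longest coding transcript, 13.5% in Clec4a2 and 24.7% in Clec10a were also found in transcripts of other genes. For Clec4e, Clec4d, Clec5a, Clec4a1 and Clec12a it was 0%, and for Clec4n, Clec7a and Clec4a3 it was at most 2.28%. The windows of Clec10a were shared with Mgl2, the gene of the related receptor MGL2. The longest run that both coding sequences have in common is shown, since a read that lies within it cannot be assigned to either gene. It covers bases 502 to 684 of the Clec10a coding sequence in the mm9 annotation.
Clec10a and Mgl2: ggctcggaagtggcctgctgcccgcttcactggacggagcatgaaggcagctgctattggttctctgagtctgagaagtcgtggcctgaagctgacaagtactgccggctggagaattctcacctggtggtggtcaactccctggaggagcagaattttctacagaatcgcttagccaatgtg
Mgl2 was at 11.2 and 4.87 FPKM in WT against 4.74 and 1.88 FPKM in KO libraries (adjusted p = 0.343 by limma). Clec10a was 1.44 and 4.07 times as high as Mgl2 in the WT libraries and 3.91 and 1.62 times in the KO libraries, so this ratio overlapped between genotypes.

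Of the adaptors, kinases and other proteins next to the receptors, 11 of 14 genes had a lower mean log2 value in GSDMD KO mice. Fcer1g, the gene of FcRγ, was at 202.9 and 241.5 FPKM in WT libraries and at 92.4 and 10.9 FPKM in KO libraries. Tyrobp, the gene of DAP12, was at 164.9 and 205.2 FPKM in WT against 75.1 and 15.0 FPKM in KO libraries. Both adaptors were more abundant per length than any of the receptors in each of the 4 libraries. Syk was at 10.7 and 14.6 FPKM in WT against 5.35 and 1.55 FPKM in KO libraries, which gave -1.75 on the log2 scale (standard error 0.49, limma adjusted p = 0.248) and -1.09 without KO replicate 2. Of 14 adaptor and proximal signalling genes tested, 0 were called at the adjusted threshold. An unadjusted p under 0.05 with a log2 fold change below -1 was found in 8, beside 4.14% of all genes tested. Vav3, the gene of an exchange factor that is also present outside the myeloid lineage, went the other way, with 4.29 and 3.75 FPKM in WT against 8.69 and 22.2 FPKM in KO libraries (adjusted p = 0.248 by limma). The median log2 fold change of the 14 genes was -1.66, and it was -0.87 without KO replicate 2.

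Further down the pathway the values parted. Card9 was at 6.09 and 9.17 FPKM in WT libraries and at 2.72 and 0.950 FPKM in KO libraries, which gave -1.66 on the log2 scale (standard error 0.41, limma adjusted p = 0.248). Its partners Bcl10 and Malt1, which many cell types use, had both KO libraries above both WT libraries, as did 35.3% of all genes tested. Their log2 fold changes were 0.43 and 0.36, with adjusted p-values of 0.456 and 0.513 by limma. Over the 10 tested genes of this module and its transcription factors the median log2 fold change was -0.14, with 0 calls, and it was -0.034 without KO replicate 2. Card9 alone of the 10 had an unadjusted p under 0.05 and a log2 fold change below -1.

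Among 14 tested genes that receptor signalling is known to induce or to act through, 0 were called at the adjusted threshold, and the median log2 fold change was -0.82. At an unadjusted p under 0.05 and the same fold limit, 5 had lower and 2 had higher values in KO libraries. The 5 lower genes were Il1b, Tnf, Nlrp3, Cxcl2 and Ccl3, which encode inflammatory mediators and an inflammasome sensor. Their log2 fold changes were -3.41, -1.45, -1.40, -3.52 and -3.04. Like Clec4d and Clec4e, Cxcl2 was already low in KO replicate 1, at 2.09 FPKM against 38.8 and 46.6 FPKM in WT libraries. So were Il1b and Ccl3, at 5.22% and 5.87% of their WT means. The 2 higher genes were Egr2 and Egr3, early response transcription factors, at 1.56 and 2.33 on the log2 scale (limma adjusted p = 0.248 for both). Il6, Il10, Il12b and Il23a were too low to be tested.

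**Figure D5:**
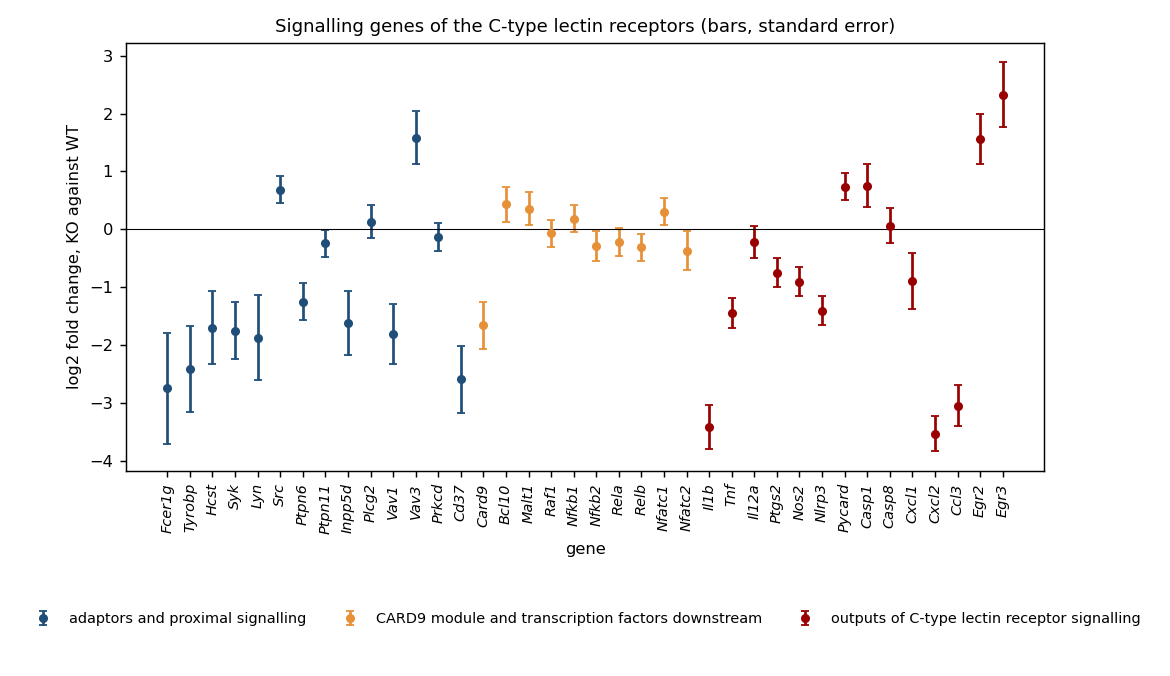
Log2 fold change of KO against WT for 38 tested genes of C-type lectin receptor signalling, coloured by step in the pathway, with bars for the standard error (n = 2 per genotype). Most adaptors lie below 0, genes of the CARD9 module other than Card9 lie between -0.37 and 0.43, and the outputs spread from -3.52 (Cxcl2) to 2.33 (Egr3).

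Of 47 other genes with a C-type lectin domain 24 could be tested, and 0 were called. Their median log2 fold change was -0.27, and it was 0.27, on the other side of 0, without KO replicate 2. Leaving out KO replicate 1 gave -0.84. With an unadjusted p under 0.05 and a log2 fold change below -1, 3 of the 24 were counted, namely Clec4b1, Cd209a and Cd302. Clec2g passed the same limits in the other direction, with a log2 fold change of 1.08 (adjusted p = 0.251 by limma). Cd209a, the mouse gene of a DC-SIGN homologue, was at 3.54 and 3.28 FPKM in WT against 1.67 and 0.350 FPKM in KO libraries. Mrc1, the macrophage mannose receptor, was much like Clec10a, at 14.7 and 12.6 FPKM in WT libraries, 12.7 FPKM in KO replicate 1 and 1.23 FPKM in KO replicate 2 (adjusted p = 0.415 by limma). Clec2d, a ligand of NK cell receptors, was the most abundant of the list, at 84.1 and 67.5 FPKM in WT against 90.9 and 94.6 FPKM in KO libraries.

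Among 18 myeloid transcriptional regulators, 0 were called, and the median log2 fold change was -0.12. Leaving out KO replicate 2 gave -0.039, and leaving out KO replicate 1 gave -0.21. Spi1, the gene of PU.1, was at 37.0 and 49.8 FPKM in WT against 15.9 and 4.65 FPKM in KO libraries, which gave -2.17 on the log2 scale (standard error 0.56, limma adjusted p = 0.248) and -1.38 without KO replicate 2. Batf, Irf8, Irf5 and Cebpe also had an unadjusted p under 0.05 and a log2 fold change below -1. Cebpb, a C/EBP factor found in many skin cells as well, had higher values in both KO libraries, at 50.8 and 63.7 FPKM against 22.0 and 40.9 FPKM in WT (adjusted p = 0.297 by limma).

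The genes whose values across the 4 libraries were most like those of a receptor gene were found by the Euclidean distance of centred log2(FPKM + 1) values, among 13017 genes. The nearest to Clec4e were Ccl4, Slc2a6, Acod1, Lilrb4a and Cd300lf, at distances from 0.247 to 0.674. Clec4d was at 0.401 from Clec4e, with 2 of the 13017 genes nearer, and the next receptor gene, Clec4n, was at 1.36. The pseudocount of 1 flattens low values such as those of Clec4e in KO libraries. With a pseudocount of 0.1 the log2 fold changes were -4.48 for Clec4e and -3.60 for Clec4d. Clec7a, with its spread between WT libraries, was nearest to Bcl2a1a, Cdkn1c, Myog, Tnnt2 and Mest, at 0.173 to 0.416. To the mean of the 10 receptor genes the nearest were Msr1, Nfam1, Oasl1, Arhgap30 and Evi2a, at 0.0762 to 0.196. With 4 libraries these distances are a description only.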

How the data were processed

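RNA-seq was analysed in 4 skin libraries of BLM-treated mice, 2 WT and 2 GSDMD KO, grouped by their labels. According to the study's methods and the submitters' processing notes, the authors mapped the reads on mm9 by HISAT2 (version 2.0.1), and the notes also list StringTie version 2.0.6. The methods describe gene counts from featureCounts and calls made with DESeq2 on them, and the authors' read counts were not analysed here. The deposited table is named as counts, but 99.993% of its values above 0 are not whole, and they were read as FPKM that the authors had divided by length and depth. No count model was therefore used. The program that wrote the FPKM is not given in the sources used here, nor is the use of strand. Of the 24441 names, 26 had been turned into dates.

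The 13027 genes that reached 1 FPKM in 2 or more libraries entered a limma fit (version 3.58.1, R version 4.3.3) of log2(FPKM + 1) on genotype, with a mean-variance trend and Benjamini-Hochberg adjustment. A call required an adjusted p under 0.05 together with a log2 fold change beyond 1 in either direction. The fit and the depth estimate, which was off by at most 2.43% there, were tested on simulated data. Coordinates are those of the table on mm9, with starts counted from 1. Promoter windows are from RefSeq (GRCm38.p6), and coding sequences from GENCODE on mm9. Alignments were made with Biopython version 1.88. The genes and lists were chosen with earlier results of these data known. Named genes are the 10 receptor genes, Gsdmd, genes of a list with an unadjusted p under 0.05 past the fold limit or with high levels, and the nearest genes by distance. Others, such as Clec4a4, Clec4b2, Mgl2, Mrc1, Bcl10, Malt1, Cebpb, Treml4, Ly6g, Epcam, Cd163, Cd207, Krt1, Krt10, Lhx2, the untested interleukins and the Y-linked genes, were named after their values were seen. Other pseudocounts, filters and scalings, a fit without the trend, the replicate number as a block and leaving out each library were tried as alternatives.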

Additional observations from a re-analysis of the deposited data

How the results depend on the processing

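Under 14 alternatives the log2 fold change of the receptor genes was below 0 in 138 of 139 values. The exception was Clec10a, at 0.0475 without KO replicate 2 and at -2.22 without KO replicate 1. The mean filter of 5 FPKM left Clec5a out. The filters, the fit without the trend and both replicate blocks cannot change the log2 fold change of a gene. Their values repeat those of the report, so the count of values below 0 is not a measure of stability. Of all genes, 0 to 2058 were called when a library was left out, of the receptor genes 0 to 10, and of the genes of the 5 pathway lists 0 to 32. The highest counts came without KO replicate 1, where the lone KO library is assumed to vary like the WT group and 15.8% of all genes were called. The same assumption is made for KO replicate 1 in the fit without KO replicate 2. Where a WT library was left out, the lone WT library is assumed to vary like the KO group. Calls from these fits are therefore not results for single genes. The median log2 fold change of the receptor genes ran from -2.81 to -1.25 over the libraries left out. For Gsdmd the log2 fold change ran from -2.38 to -1.90 over them. Counts of genes at an unadjusted p under 0.05 were 539 lower and 802 higher with the settings of the report, and 700 lower and 614 higher with median-ratio factors, which moved the median of all genes from 0.11 to -0.01. The lower count was 349 with the mean filter of 5 FPKM, 242 without WT replicate 2, 333 without KO replicate 2 and 1605 without KO replicate 1. The higher count was 266 without WT replicate 2 and 1412 without KO replicate 1.

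Same-numbered libraries deviated with a correlation of -0.20 over 13027 genes, and no source says that the number marks a shared batch. With the replicate block 0 genes were called. The median log2 fold change of the receptor genes stayed at -1.97 and that of Gsdmd at -2.14, since a block cannot change them in this balanced design. With WT replicate 1 paired to KO replicate 2, an alternative chosen after seeing the data, 0 genes were called, and 681 were lower and 819 higher at the unadjusted limits. An exact permutation test of 2 against 2 libraries cannot give a p below 0.333.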
